A study of Homo sapiens with 372 samples.

Results

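The genes described here are the aminoacyl-tRNA synthetases, 36 of the 9664 genes listed for single A2780 cells. They were taken by symbol, with EPRS, FARSA and FARSB added for the enzymes whose names follow another form, and split by where the enzyme works. A symbol ending in 2 marks a mitochondrial enzyme, which gave 20 cytosolic and 16 mitochondrial genes. Of the cytosolic genes, GARS and KARS also encode the mitochondrial form of their enzyme. MARS2, the mitochondrial methionine enzyme, was not analysed here. All 36 passed the detection limit, an E-value above 0 in more than 30% of the cells of a condition. The annotation now in use ends the symbols of the cytosolic genes in 1 (SARS is SARS1), and the older symbols of the data are kept.

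An aminoacyl-tRNA synthetase joins an amino acid to the tRNAs whose anticodons pair with the codons of that amino acid, and the ribosome then uses the charged tRNA. The cytosolic enzymes serve translation of nuclear genes, whereas a separate nuclear-encoded set is imported into mitochondria for the few proteins made there. Several cytosolic enzymes sit in a multi-synthetase complex held together by the scaffold proteins AIMP1, AIMP2 and EEF1E1. When uncharged tRNA or another stress leads to phosphorylation of the initiation factor eIF2, translation of the transcription factor ATF4 rises, and cytosolic synthetase genes are among its known targets.

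A2780 is an established human ovarian endometrioid adenocarcinoma line. Its cells were left untreated (Ctrl, 46 cells), or received 5 nM of paclitaxel, a microtubule stabilizer, during 16 h (Pac16h, 56 cells) or 48 h (Pac48h, 53 cells). Others received 75 µM of celecoxib, a cyclooxygenase-2 inhibitor, during 2 h (Cele2h, 63 cells) or 16 h (Cele16h, 61 cells), or the 2 drugs together at these doses during 16 h (PacCele16h, 59 cells). The comparisons ask how each treatment and the addition of celecoxib to paclitaxel altered the transcriptome relative to a spike-in. Cells were captured on a C1 system and amplified by Smart-seq2, which copies full-length polyA-tailed RNA. Neither the labels nor the methods name replicate cultures, so each condition is 1 sample, and no difference between conditions could be tested. The SD values are spreads over cells.

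The E-value of a gene is log2(N/10 + 1), where N is its TPM after division by a spike-in RNA, so that it is a level per length of transcript, scaled to the input of spike-in. Reads per cell are unknown, and the depth is described by the median number of genes detected, which lay between 6126 and 6630 in the 6 conditions. Relative to Ctrl, the median total of N was 0.504 times as high in Pac16h, 0.643 in Pac48h, 0.591 in Cele2h, 0.348 in Cele16h and 1.40 in PacCele16h. For this reason an absolute and a relative difference are given. The absolute difference is the treated minus the Ctrl mean E-value as deposited, and the relative difference is the same after N of each cell was set to a common total, so that it shows a gene against the other genes of its cell. The library index blocks partly followed the conditions. All Ctrl cells had indices of block 4, which they shared with 31 of the 53 Pac48h cells only, so Pac16h, Cele2h, Cele16h and PacCele16h cannot be told apart from their blocks when set against Ctrl. Of the PacCele16h cells, 34 shared block 1 with all Pac16h cells and 25 shared block 3 with all Cele16h cells. Of 12 epithelial, Müllerian and mesenchymal markers, KRT18 (mean E-value 0.59 in Ctrl) and VIM (3.70) were listed, and EPCAM and PAX8 were not. Of 12 markers of other cell types, COL3A1 (1.86), LUM (0.48) and LYZ (0.15) were listed, and their part in the results was not tested.

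In Ctrl the cytosolic genes were well above the mitochondrial genes. The mean E-value of the cytosolic genes ran from 1.53 for VARS, the valine enzyme, to 5.02 for LARS, the leucine enzyme, with a median of 3.80, and the median gene was detected in 97.8% of the cells. The mitochondrial genes ran from 0.07 for AARS2, the alanine enzyme, to 3.31 for RARS2, the arginine enzyme, with a median of 1.52 and a median detection of 58.7%. The highest cytosolic genes were LARS, KARS and GARS, the enzymes of leucine, lysine and glycine. Mean E-values of LARS were 5.02 in Ctrl, 4.59 in Pac16h, 4.61 in Pac48h, 5.22 in Cele2h, 4.24 in Cele16h and 6.22 in PacCele16h. Those of KARS, in the same order of conditions, were 4.80, 3.72, 3.89, 3.92, 3.34 and 5.51, and those of GARS were 4.67, 3.77, 4.14, 5.32, 4.07 and 5.82. The 3 levels were highest in PacCele16h. The SD over cells was 0.837 to 1.02 for LARS, 0.915 to 1.34 for KARS and 0.951 to 1.51 for GARS, so single cells of different conditions overlapped widely.

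**Figure D1:**
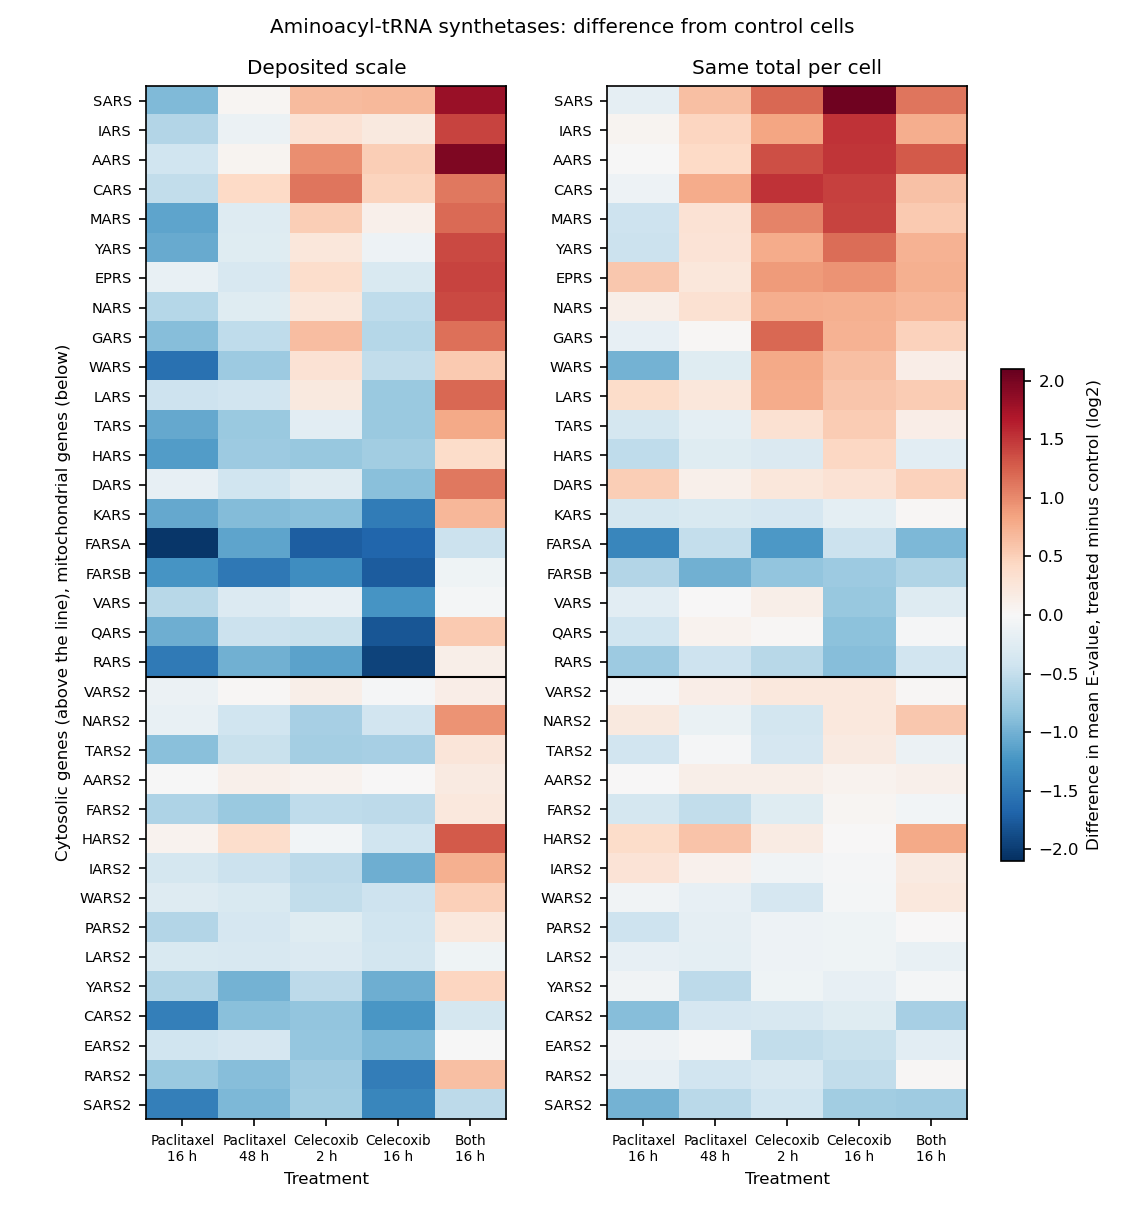
Difference in mean E-value (log2) from control cells for 35 synthetase genes (rows) and 5 treatments (columns), on the deposited scale (left) and at the same total per cell (right). Cytosolic genes are above the line and mitochondrial genes below it, each ordered by the right-hand Cele16h column. On the left most genes are lower after a single drug and higher after the combination. On the right a group of cytosolic genes led by SARS, IARS, AARS and CARS stands above control after celecoxib, alone or with paclitaxel.

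The share of a cell's total held by the synthetase genes does not depend on the spike-in, and it was higher for the cytosolic genes in all conditions with celecoxib. In Ctrl the 20 cytosolic genes held a median of 0.243% of the total (range 0.154 to 0.360%). This median was 0.229% in Pac16h, 0.285% in Pac48h, 0.388% in Cele2h, 0.452% in Cele16h and 0.348% in PacCele16h. Relative to Ctrl, the 5 medians were 0.942, 1.17, 1.60, 1.86 and 1.43 times as high. The highest Ctrl cell was exceeded by 3 of 56 Pac16h, 14 of 53 Pac48h, 38 of 63 Cele2h, 49 of 61 Cele16h and 27 of 59 PacCele16h cells. The distributions therefore overlapped, least for Cele16h. The SD over cells was 0.0465 percentage points in Ctrl and 0.0631, 0.0938, 0.0976, 0.0987 and 0.103 in the treated groups in the same order.

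The mitochondrial genes did not show such a gap. Their median share was 0.0478% in Ctrl, 0.0463% in Pac16h, 0.0459% in Pac48h, 0.0472% in Cele2h, 0.0543% in Cele16h and 0.0536% in PacCele16h. The treated medians were 0.969, 0.960, 0.989, 1.14 and 1.12 times that of Ctrl, all within 1 SD over the Ctrl cells (0.0138 percentage points). The ratio of the cytosolic to the mitochondrial sum had a median of 4.94 in Ctrl, 5.43 in Pac16h, 6.34 in Pac48h, 8.80 in Cele2h, 8.31 in Cele16h and 6.76 in PacCele16h. In the index block that Pac48h shared with Ctrl its cytosolic share was 1.27 times that of Ctrl, and in the block that it shared with Cele2h it was 1.10 times. The 2 blocks of PacCele16h gave 1.42 and 1.47 times.

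**Figure D2:**
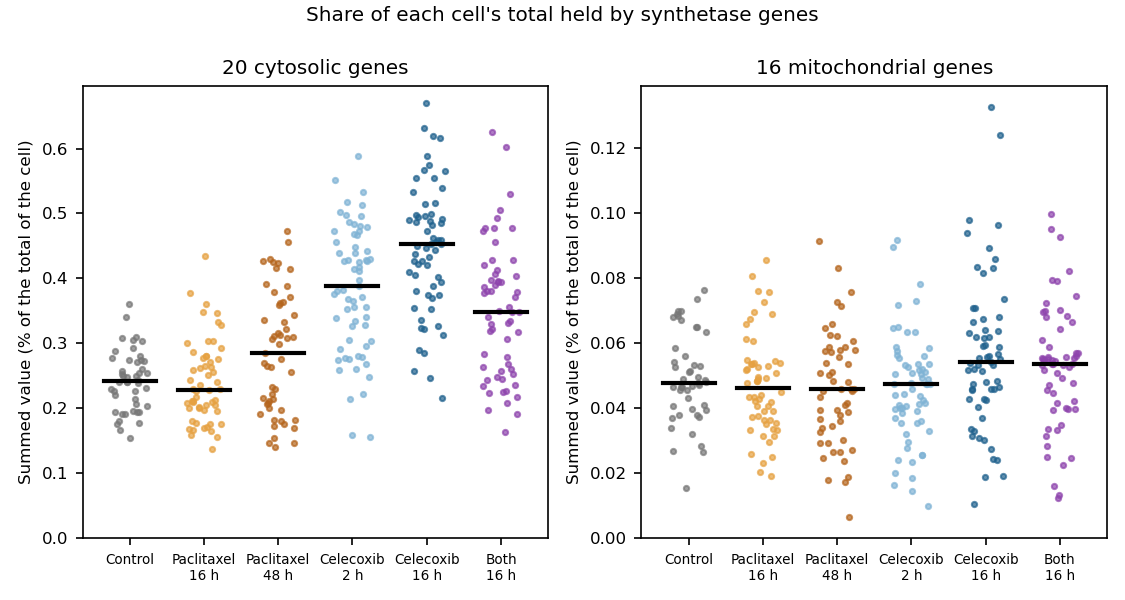
Share of each cell's total (percent, y axis from 0) held by the 20 cytosolic genes (left) and the 16 mitochondrial genes (right), with 1 point per cell and a bar at the median of each condition. The cytosolic medians stand at 0.388% in Cele2h and 0.452% in Cele16h against 0.243% in Ctrl, whereas the mitochondrial medians stay between 0.0459% and 0.0543%.

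With celecoxib alone, part of the cytosolic set stood above the rest of the transcriptome already at 2 h. A relative difference past the limit of 1.5-fold (0.585 on the log2 scale) above Ctrl was seen for 11 of the 20 cytosolic genes in Cele2h and for 10 in Cele16h, against 3.31% and 7.37% of all genes. The constant in the E-value compresses weakly expressed genes, which lowers the shares of all genes. As a log2 ratio of mean N at the same total, 11 and 13 of the 20 were above the limit. Of 9654 genes 2137 and 3405 were then above it, so the contrast with all genes was smaller. By relative difference the gene furthest above Ctrl in Cele2h was CARS, the cysteine enzyme, and in Cele16h it was SARS, the serine enzyme. SARS (chr1:109213918-109238182, hg38) had mean E-values of 4.47 ± 0.866 in Ctrl, 3.54 ± 1.40 in Pac16h, 4.51 ± 1.17 in Pac48h, 5.13 ± 1.34 in Cele2h, 5.15 ± 1.04 in Cele16h and 6.28 ± 1.27 in PacCele16h (mean ± SD over cells). The 3 conditions with celecoxib were thus the high ones, and the ranges over cells overlapped in all conditions. Its relative difference was 1.21 in Cele2h and 2.04 in Cele16h, the latter the highest value of the 36 genes in any treatment. SARS made up 6.40% of the summed cytosolic N in Ctrl, 16.8% in Cele16h and 12.6% in PacCele16h. Without SARS the median cytosolic share was 1.52 times that of Ctrl in Cele2h and 1.61 times in Cele16h.

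AARS (chr16:70251983-70289707), the alanine enzyme, and CARS (chr11:3000922-3057613) were among the lowest cytosolic genes in Ctrl. Mean E-values of AARS were 1.81 ± 1.31 in Ctrl, 1.40 ± 1.24 in Pac16h, 1.86 ± 1.46 in Pac48h, 2.78 ± 1.16 in Cele2h, 2.33 ± 1.25 in Cele16h and 3.77 ± 1.49 in PacCele16h (mean ± SD over cells). CARS had 1.88 ± 1.45 in Ctrl, 1.36 ± 1.31 in Pac16h, 2.29 ± 1.65 in Pac48h, 3.00 ± 1.24 in Cele2h, 2.35 ± 1.37 in Cele16h and 2.99 ± 2.12 in PacCele16h (mean ± SD over cells). Both were highest in conditions with celecoxib, and the quartile ranges of CARS overlapped between Ctrl and every treatment. The relative difference of AARS was 1.35 in Cele2h and 1.51 in Cele16h, and that of CARS was 1.51 and 1.43.

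**Figure D3:**
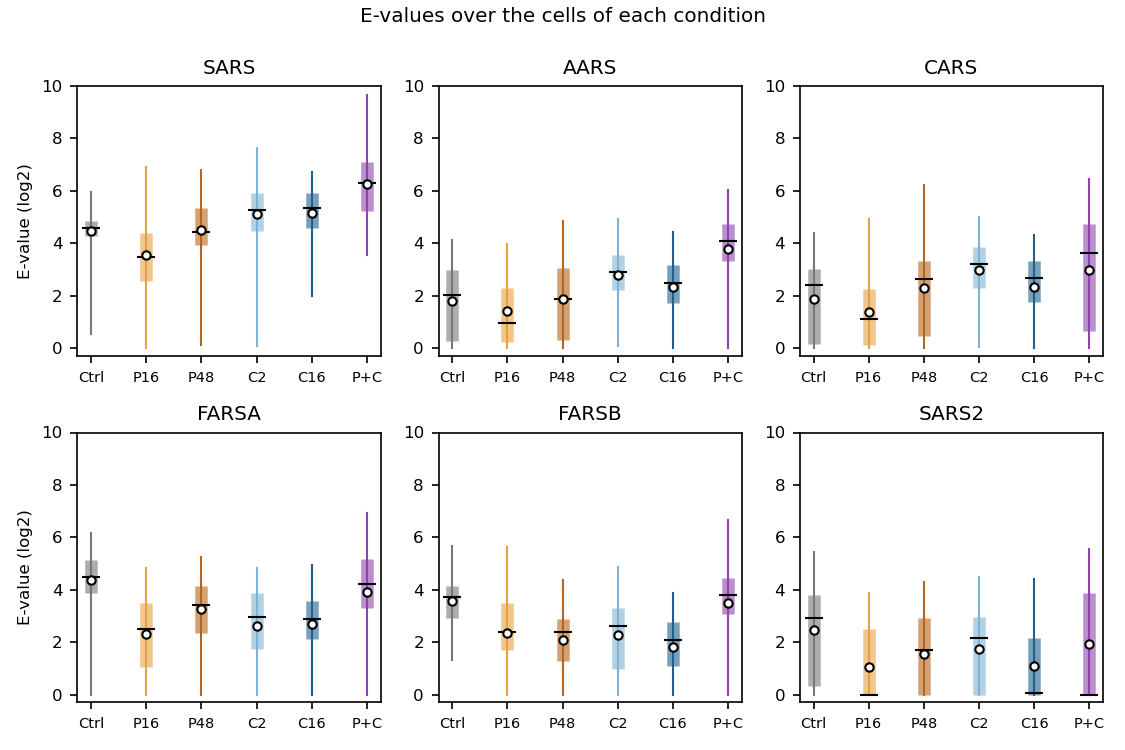
E-values (log2) of 6 synthetase genes over the cells of each condition (P16, Pac16h; P48, Pac48h; C2, Cele2h; C16, Cele16h; P+C, PacCele16h). Thin lines give the range, thick bars the quartiles, dashes the median and circles the mean. Mean E-values of SARS and AARS are highest in PacCele16h, those of FARSA and SARS2 are highest in Ctrl, and most ranges reach 0.

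IARS and MARS, the isoleucine and methionine enzymes of the multi-synthetase complex, followed. In the order Ctrl, Pac16h, Pac48h, Cele2h, Cele16h and PacCele16h, mean E-values of IARS were 3.51, 2.89, 3.39, 3.82, 3.71 and 4.94, and those of MARS were 4.32, 3.21, 4.05, 4.82, 4.42 and 5.50. Between Cele2h and Cele16h the relative difference went from 0.83 to 1.51 for IARS and from 1.03 to 1.43 for MARS. The MARS value has a limit, since its exons share 355 bases with those of DDIT3 on the opposite strand, and Smart-seq2 does not keep strand. DDIT3 itself had relative differences of 1.96 and 2.22, and its part in the MARS values was not tested.

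YARS, NARS, EPRS, WARS and GARS, the enzymes of tyrosine, asparagine, glutamate with proline, tryptophan and glycine, were also past the limit in Cele2h and Cele16h. YARS had mean E-values of 3.72, 2.66, 3.47, 3.96, 3.61 and 5.10 in the same order, with relative differences of 0.78 in Cele2h and 1.17 in Cele16h. For NARS the levels were 4.18, 3.59, 3.92, 4.42, 3.64 and 5.57 and the relative differences 0.77 and 0.74. For EPRS, which holds 2 synthetase activities in 1 chain, the levels were 3.60, 3.45, 3.26, 3.97, 3.28 and 5.02 and the relative differences 0.90 and 0.94. WARS and GARS were closer to Ctrl at the later time. WARS had levels of 3.39, 1.83, 2.62, 3.71, 2.88 and 3.94, with relative differences of 0.80 and 0.64, and GARS had 1.20 and 0.73. LARS was past the limit in Cele2h (0.79) and just under it in Cele16h (0.58).

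Other cytosolic genes were lower than Ctrl by relative difference. In Cele2h 2 of the 20 were past the limit below Ctrl, the subunits FARSA and FARSB of the phenylalanine enzyme, near the 8.12% of all genes. In Cele16h 4 were, namely RARS, QARS, VARS and FARSB, against 7.95% of all genes. As a log2 ratio of mean N at the same total, 2 and 1 of the 20 were below the limit at these times. Of 9654 genes 1008 and 787 were then below it, so these counts lie near the share of all genes. FARSA (chr19:12922479-12934037) had mean E-values of 4.36 ± 1.17 in Ctrl, 2.32 ± 1.46 in Pac16h, 3.25 ± 1.19 in Pac48h, 2.63 ± 1.48 in Cele2h, 2.69 ± 1.24 in Cele16h and 3.91 ± 1.87 in PacCele16h (mean ± SD over cells). FARSB (chr2:222566899-222656092) had 3.58 ± 1.01 in Ctrl, 2.35 ± 1.38 in Pac16h, 2.08 ± 1.25 in Pac48h, 2.29 ± 1.40 in Cele2h, 1.83 ± 1.26 in Cele16h and 3.49 ± 1.69 in PacCele16h (mean ± SD over cells). Both subunits had mean E-values below Ctrl under all 5 treatments, in absolute and in relative terms. As a log2 ratio of mean N as deposited, however, they were above Ctrl in PacCele16h, by 0.03 for FARSA and 0.32 for FARSB. Relative differences of FARSA were -1.38, -0.50, -1.21, -0.45 and -0.95 in the order of treatments, and those of FARSB were -0.62, -1.01, -0.83, -0.76 and -0.63. FARSA held 6.69% of the cytosolic sum in Ctrl and 2.05% in Cele2h.

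RARS and QARS, the arginine and glutamine enzymes, belong to the multi-synthetase complex. Mean E-values of RARS were 4.23 in Ctrl, 2.75 in Pac16h, 3.22 in Pac48h, 3.11 in Cele2h, 2.29 in Cele16h and 4.36 in PacCele16h. QARS had 3.85, 2.82, 3.39, 3.38, 2.05 and 4.40 in this order, and VARS had 1.53, 0.94, 1.24, 1.36, 0.30 and 1.48. All 3 had their lowest level in Cele16h. There the relative difference was -0.89 for RARS, -0.86 for QARS and -0.80 for VARS, against -0.58, 0.03 and 0.13 in Cele2h. As a log2 ratio of mean N at the same total, however, neither RARS nor QARS was past the limit below Ctrl in Cele16h. The lowest of the 8 complex enzymes was then at -0.39. VARS was detected in 38 of 46 cells (82.6%, 95% interval 68.6 to 92.2%) of Ctrl and in 25 of 61 cells (41.0%, 95% interval 28.6 to 54.3%) of Cele16h. These intervals are exact Clopper-Pearson intervals and cover counting error only.

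Absolute differences, which keep the change in total, gave other counts for celecoxib. In Cele2h, 4 cytosolic genes were past the limit above Ctrl (CARS, AARS, SARS and GARS) and 5 below it (FARSA, FARSB, RARS, KARS and HARS, the histidine enzyme), against 1.12% and 25.7% of all genes. Of the cytosolic genes in Cele16h, SARS alone was above, by 0.68, and 11 were below, against 0.383% and 43.9% of all genes. The median absolute difference of the cytosolic genes was 0.22 in Cele2h and -0.67 in Cele16h, and the median relative difference was 0.77 and 0.61. Over all genes the absolute medians were -0.26 and -0.48 and the relative medians -0.02 and 0.03. The direction of the cytosolic median in Cele16h thus depended on the scale.

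With paclitaxel alone, synthetase levels were mostly lower than in Ctrl. In absolute terms no member of Pac16h was past the limit above Ctrl, and 15 of 20 cytosolic and 8 of 16 mitochondrial genes were below it, against 0.0932% and 37.3% of all genes. FARSA (-2.04), WARS (-1.57) and RARS (-1.48) were the lowest cytosolic genes, and the median of the cytosolic genes was -0.98 against -0.41 for all genes. In relative terms FARSA, WARS (-0.99), RARS and FARSB were past the limit below Ctrl, together with the mitochondrial SARS2 and CARS2, and no member was above it, against 10.0% of all genes below and 1.40% above. The highest relative differences were those of EPRS (0.57) and DARS (0.51), the aspartate enzyme, both under the limit. DARS had mean E-values of 3.52 in Ctrl, 3.35 in Pac16h, 3.11 in Pac48h, 3.24 in Cele2h, 2.65 in Cele16h and 4.63 in PacCele16h.

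Fewer members were low in Pac48h. By absolute difference 7 cytosolic genes were past the limit below Ctrl (FARSB, FARSA, RARS, KARS, TARS, WARS and HARS) and none above it, together with 6 mitochondrial genes below, against 0.922% of all genes above and 26.6% below. By relative difference CARS (0.78) and SARS (0.63) were above Ctrl and FARSB (-1.01) was below, and the mitochondrial HARS2 (0.61) was above, against 3.28% and 5.78% of all genes. The median relative difference of the cytosolic genes was -0.30 in Pac16h and 0.10 in Pac48h. Within block 4 (31 Pac48h and 46 Ctrl cells) CARS, SARS and FARSB were again the cytosolic genes past the limit, against 4.81% of all genes above and 5.85% below. HARS2 was then under the limit (0.37), as were all other mitochondrial genes. The 2 times share no index block.

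In PacCele16h most cytosolic genes were above Ctrl. By absolute difference 13 of 20 cytosolic genes and 4 of 16 mitochondrial genes (HARS2, NARS2, IARS2 and RARS2) were past the limit above Ctrl and none was below it, against 30.4% and 1.76% of all genes. AARS (1.96) and SARS (1.81) had the largest differences, and the median was 1.11 for cytosolic, 0.22 for mitochondrial and 0.33 for all genes. By relative difference 7 cytosolic genes were above Ctrl, namely AARS (1.29), SARS (1.12), IARS (0.76), EPRS (0.74), YARS (0.73), NARS (0.70) and CARS (0.62), together with HARS2 (0.79). FARSA, FARSB, SARS2 and CARS2 were below it. Of all genes 5.96% were above and 5.80% below.

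PacCele16h was also compared directly with Pac16h, which gives the effect of adding celecoxib in the presence of paclitaxel and uses none of the Ctrl or Cele16h cells. By relative difference 8 cytosolic genes were past the limit above paclitaxel alone and none below, against 9.57% and 1.64% of all genes. They were SARS (1.31), AARS (1.3), YARS (1.18), WARS (1.12), MARS (0.98), CARS (0.72), IARS (0.70) and GARS (0.65). No mitochondrial gene was past the limit in either direction by this measure. All 8 were among the 10 cytosolic genes above Ctrl in Cele16h, so the overlap was 100% of the first list and 80.0% of the second. Over all genes the overlap was 240 genes, 26.0% of the 924 with paclitaxel and 33.7% of the 712 without it. EPRS and NARS were past the limit only without paclitaxel, and NARS (0.57) lay just under it with paclitaxel. Within block 1 (34 PacCele16h and 56 Pac16h cells) 8 cytosolic genes were again above and none below, against 10.8% and 1.62% of all genes, with NARS (0.66) past the limit and CARS (0.46) under it, and no mitochondrial gene was past it. In absolute terms 19 of 20 cytosolic and 12 of 16 mitochondrial genes were above Pac16h, against 62.5% of all genes above and 0.0311% below. As a log2 ratio of mean N at the same total, 7 of 20 cytosolic and 2 of 16 mitochondrial genes were above Pac16h and none was below. Of 9655 genes 2314 were then above and 845 below, so the contrast with all genes was smaller. The medians of this ratio were 0.46 for cytosolic, 0.36 for mitochondrial and 0.18 for all genes.

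**Figure D4:**
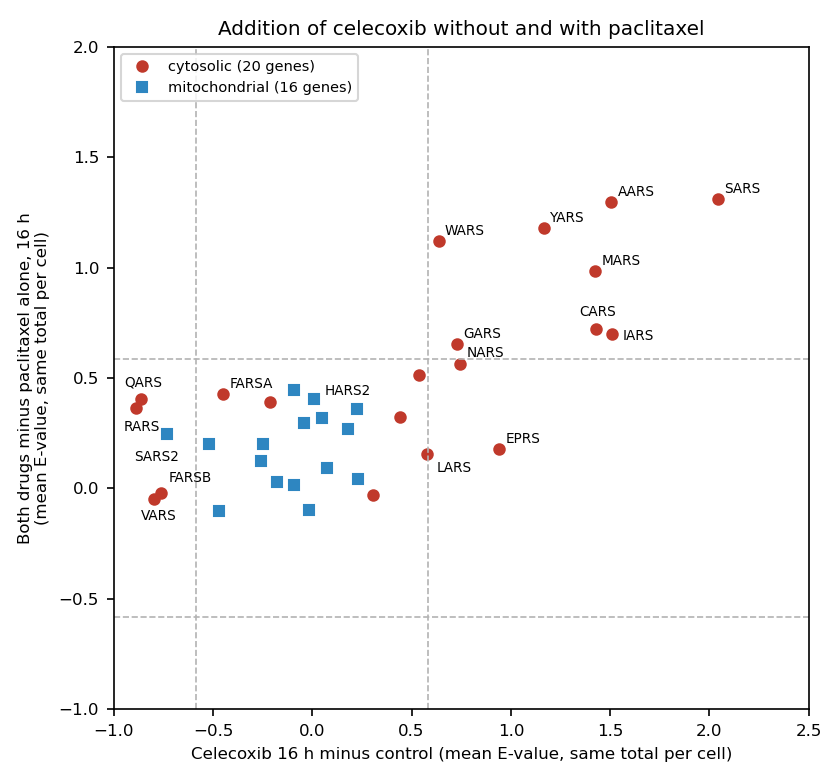
Relative difference (mean E-value at the same total per cell) when celecoxib was added without paclitaxel (x axis, Cele16h minus Ctrl) and with it (y axis, PacCele16h minus Pac16h), with 1 point per gene. Dashed lines mark the 1.5-fold limit. SARS, AARS, YARS, WARS, MARS, CARS, IARS and GARS lie past it on both axes, and no mitochondrial gene does.

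Of the mitochondrial genes, RARS2, CARS2 and IARS2, the arginine, cysteine and isoleucine enzymes, were highest in Ctrl. Mean E-values of RARS2 were 3.31 in Ctrl, 2.53 in Pac16h, 2.42 in Pac48h, 2.57 in Cele2h, 1.86 in Cele16h and 3.94 in PacCele16h. In the same order IARS2 had 2.89, 2.53, 2.44, 2.34, 1.86 and 3.63, and CARS2 had 2.91, 1.47, 2.04, 2.08, 1.69 and 2.53. RARS2 and IARS2 were highest in PacCele16h and CARS2 in Ctrl. The relative difference of CARS2 was -0.89 in Pac16h and -0.69 in PacCele16h. Those of RARS2 and IARS2 stayed within the limit under every treatment.

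SARS2, the mitochondrial serine enzyme, was past the limit below Ctrl by relative difference in Pac16h, Cele16h and PacCele16h. It had mean E-values of 2.48 ± 1.68 in Ctrl, 1.04 ± 1.34 in Pac16h, 1.54 ± 1.52 in Pac48h, 1.75 ± 1.57 in Cele2h, 1.11 ± 1.34 in Cele16h and 1.93 ± 2.09 in PacCele16h (mean ± SD over cells). Each treatment had a mean E-value below Ctrl, although the log2 ratio of mean N as deposited was 0.04 in PacCele16h, and the median cell of Pac16h and PacCele16h had an E-value of 0. Its relative differences were -0.99, -0.57, -0.41, -0.73 and -0.75 in the order of treatments. It was detected in 34 of 46 cells (73.9%, 95% interval 58.9 to 85.7%) of Ctrl and in 23 of 56 cells (41.1%, 95% interval 28.1 to 55.0%) of Pac16h. Its cytosolic counterpart SARS had relative differences of -0.19, 0.63, 1.21, 2.04 and 1.12.

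HARS2, the mitochondrial histidine enzyme, was above Ctrl by relative difference past the limit in Pac48h and PacCele16h. Its mean E-values were 1.13 in Ctrl, 1.20 in Pac16h, 1.5 in Pac48h, 1.08 in Cele2h, 0.71 in Cele16h and 2.41 in PacCele16h. HARS and HARS2 lie head to head on chromosome 5 and share 108 exon bases on opposite strands, and HARS2 shares 152 more with ZMAT2, so their reads cannot be fully told apart. AARS2 was near the limit of detection throughout, with mean E-values of 0.07, 0.06, 0.18, 0.15, 0.09 and 0.27, and was detected in 12 of 46 cells (26.1%, 95% interval 14.3 to 41.1%) of Ctrl. VARS2 and LARS2, the valine and leucine enzymes, were also detected in under 50% of the cells of each condition, and their mean E-values stayed at or under 0.71.

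The remaining mitochondrial genes, among them EARS2, FARS2, NARS2, PARS2, TARS2, WARS2 and YARS2, did not pass the limit by relative difference in any treatment. In absolute terms 7 of 16 mitochondrial genes were below Ctrl in Cele2h and 8 in Cele16h, against 25.7% and 43.9% of all genes, with none above. The median relative differences of the 16 genes were -0.14 in Pac16h, -0.17 in Pac48h, -0.29 in Cele2h, -0.07 in Cele16h and -0.02 in PacCele16h. Since the E-value adds a constant to N, it compresses the differences of weakly expressed genes such as these. As a log2 ratio of mean N at the same total, which has no such constant, the median of the mitochondrial genes was 0.26 in Cele16h, against 0.76 for the cytosolic genes and 0.33 for all genes.

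Set side by side by amino acid, most cytosolic genes had a higher relative difference with celecoxib than their mitochondrial counterpart. Of the 16 mitochondrial genes, 12 in Cele2h, 13 in Cele16h and 11 in PacCele16h had a relative difference below that of the cytosolic gene. There were 7 in Pac16h and 10 in Pac48h. The gap in Cele16h was 2.77 for serine (SARS over SARS2), 1.68 for cysteine, 1.53 for isoleucine and 1.43 for alanine. It was -1.03 for valine and -0.37 for arginine, whose cytosolic genes were among those that were lower. The alanine gap is almost wholly the value of AARS (1.51). AARS2 (0.075) was near the limit of detection, where the constant in the E-value holds a difference close to none. The median gap was -0.05 in Pac16h, 0.33 in Pac48h, 0.90 in Cele2h, 0.68 in Cele16h and 0.63 in PacCele16h. In absolute terms the cytosolic gene had the higher difference in 5 of 16 pairs in Pac16h, 8 in Pac48h, 12 in Cele2h, 8 in Cele16h and 12 in PacCele16h, with median gaps of -0.33, -0.02, 0.72, 0.01 and 0.80. In Cele16h the pairs thus leaned to the cytosolic gene in relative terms only.

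Membership of the multi-synthetase complex did not separate the genes that were higher from those that were lower. In Cele16h 3 of the 8 complex enzymes (IARS, MARS and EPRS) were past the limit above Ctrl by relative difference and 2 (RARS and QARS) below it. Of the other 12 cytosolic genes 7 were above and 2 below, against 7.37% and 7.95% of all genes. As a log2 ratio of mean N at the same total, 4 of the 8 were above and 0 below, and of the other 12 genes 9 and 1. Of 9654 genes 3405 were then above and 787 below. By relative difference KARS and DARS, the lysine and aspartate enzymes of the complex, differed by -0.21 and 0.30. The scaffold gene AIMP1 had relative differences of 0.27 in Cele2h and 0.04 in Cele16h, AIMP2 had -0.77 and -0.28, and EEF1E1 had -0.48 and 0.20. None of the 3 scaffold genes was above the limit in a celecoxib condition. By enzyme fold, 5 of 17 class I genes of both compartments were above the limit and 3 below it in Cele16h, and of 18 class II genes 4 were above and 2 below, with EPRS, which holds both folds, counted apart.

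Promoters are shown because part of the cytosolic set moved together. RefSeq promoter windows (GRCh38.p14, 250 bases before to 50 after each start) matched 16 cytosolic and 13 mitochondrial genes, and they were searched on both strands for TGATGCAA, a known amino acid response element bound by ATF4 with a C/EBP partner. It was found in 6 of the 16 cytosolic genes and in none of the 13 mitochondrial genes, and in 1.08% of the 27305 genes with a window. The 30-base stretches around it are written in the direction of the gene, with the element in capitals (TTGCATCA is the same element on the other strand).
AARS: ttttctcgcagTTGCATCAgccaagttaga
CARS: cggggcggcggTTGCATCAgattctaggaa
IARS: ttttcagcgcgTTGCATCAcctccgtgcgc
MARS: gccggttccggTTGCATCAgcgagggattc
NARS: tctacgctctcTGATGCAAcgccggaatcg
TARS: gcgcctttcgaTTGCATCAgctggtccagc

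These stretches lie at chr16:70289675-70289704 (minus strand) for AARS, chr11:3057407-3057436 (minus) for CARS, chr9:92293692-92293721 (minus) for IARS, chr12:57488053-57488082 (plus) for MARS, chr18:57621804-57621833 (minus) for NARS and chr5:33440956-33440985 (plus) for TARS. Positions count from 1 at the transcription start on which the RefSeq window was set, which can differ from that of the gene coordinates given above. The stretches of AARS and CARS lie within those gene coordinates. The element spans -187 to -180 in AARS, -2 to 6 in CARS, -13 to -6 in IARS, -4 to 4 in MARS, 15 to 22 in NARS and 3 to 10 in TARS. By relative difference 5 of these 6 genes were above the limit in Cele2h and in Cele16h, with TARS, the threonine enzyme, under it (0.33 and 0.54). Of the 10 cytosolic genes with a window and without the element, 4 were above the limit at each time, among them SARS. Of all genes 3.31% were above it in Cele2h and 7.37% in Cele16h. The median relative differences with and without the element were 0.93 and -0.14 in Cele2h, and 1.43 and 0.11 in Cele16h. The looser form TGATGNAA, which takes in TGATGCAA, was found in 7 cytosolic genes (GARS in addition) and in the mitochondrial YARS2, against 4.46% of all genes with a window. GARS carries it as follows.
GARS: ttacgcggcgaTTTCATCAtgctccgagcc

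The GARS stretch lies at chr7:30594834-30594863 (plus strand), with the element at -33 to -26. TGACGTCA, the cyclic AMP response element, was found in no synthetase window and in 2.25% of all genes with a window. A match of letters is a description and does not show binding. DARS, LARS, VARS, YARS, AARS2 and VARS2 were among those not matched to a window.

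The other genes of amino acid supply and of tRNA charging were taken as lists by symbol. The amino acid response list held 36 genes known as ATF4 targets or as its regulators, of which 32 were listed. By relative difference 1 of the 32 was above the limit in Pac16h, 6 were in Pac48h, 20 in Cele2h, 23 in Cele16h and 17 in PacCele16h, against 1.40%, 3.28%, 3.31%, 7.37% and 5.96% of all genes. Below it were 2, 0, 0, 0 and 1 in this order. As a log2 ratio of mean N at the same total, 7, 18, 27, 26 and 24 of the 32 were above and 2, 0, 2, 0 and 1 below. Of 9653 or 9654 genes 1639, 2266, 2137, 3405 and 2484 were then above, a larger share than by relative difference. Below were 1561, 811, 1008, 787 and 1017 of them. By absolute difference 0, 4, 16, 12 and 26 were above and 12, 3, 2, 5 and 1 below, against 0.0932%, 0.922%, 1.12%, 0.383% and 30.4% of all genes above and 37.3%, 26.6%, 25.7%, 43.9% and 1.76% below. ATF4 itself had mean E-values of 4.51, 3.57, 3.95, 5.06, 4.36 and 5.56 in the order of conditions with relative differences of 1.09 in Cele2h and 1.18 in Cele16h. ASNS, which makes asparagine, was 2.85 and 2.21 above Ctrl, and DDIT3, a stress transcription factor, was 1.96 and 2.22 above it. The largest differences in the list belonged to DDIT4, an mTORC1 inhibitor (3.77 in Cele16h), TRIB3, a pseudokinase (2.99), ASNS and PCK2, the mitochondrial PEP carboxykinase (2.32).

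The partners list, of scaffold proteins and factors that act on tRNA or its charged form, had 19 of 21 genes listed. It had 1 gene above and 3 below the limit in Cele2h, 5 and 1 in Cele16h, and 1 and 2 in PacCele16h by relative difference. Of all genes 3.31% and 8.12%, 7.37% and 7.95%, and 5.96% and 5.80% were above and below, so that 1 gene of 19 lies near the share of all genes. SEPHS2, which makes the selenium donor for selenocysteine tRNA, was 1.29 above Ctrl in Cele16h. AARSD1, which edits mischarged alanine tRNA, differed by -1.03 there, AIMP2 by -0.94 in Pac16h, and PTRH2, a peptidyl-tRNA hydrolase, by -0.86 in Pac48h.

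Across single cells the cytosolic share and the share held by the amino acid response list varied together in every condition. Pearson's r was 0.38 in the 46 Ctrl cells (Spearman's rho 0.43), 0.46 in Pac16h (rho 0.52), 0.79 in Pac48h (rho 0.80), 0.76 in Cele2h (rho 0.73), 0.56 in Cele16h (rho 0.50) and 0.82 in PacCele16h (rho 0.83). For the mitochondrial share the same r lay between -0.17 and 0.06. All these shares have the total of the cell as their denominator, and cells of a condition come from 1 sample. DDIT3 of the response list shares 355 exon bases with MARS of the cytosolic set, so reads of either gene could add to both shares. The part of this overlap in r was not tested. In Pac48h the response share ran from 0.0903 to 0.718% with quartiles of 0.148 and 0.458%, against a range of 0.110 to 0.381% in Ctrl, and 18 of its 53 cells were above the highest Ctrl cell. The cytosolic share also varied with the log2 total of the cell, with r between 0.07 and 0.48 in the 6 conditions, and its part in the relation was not tested.

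**Figure D5:**
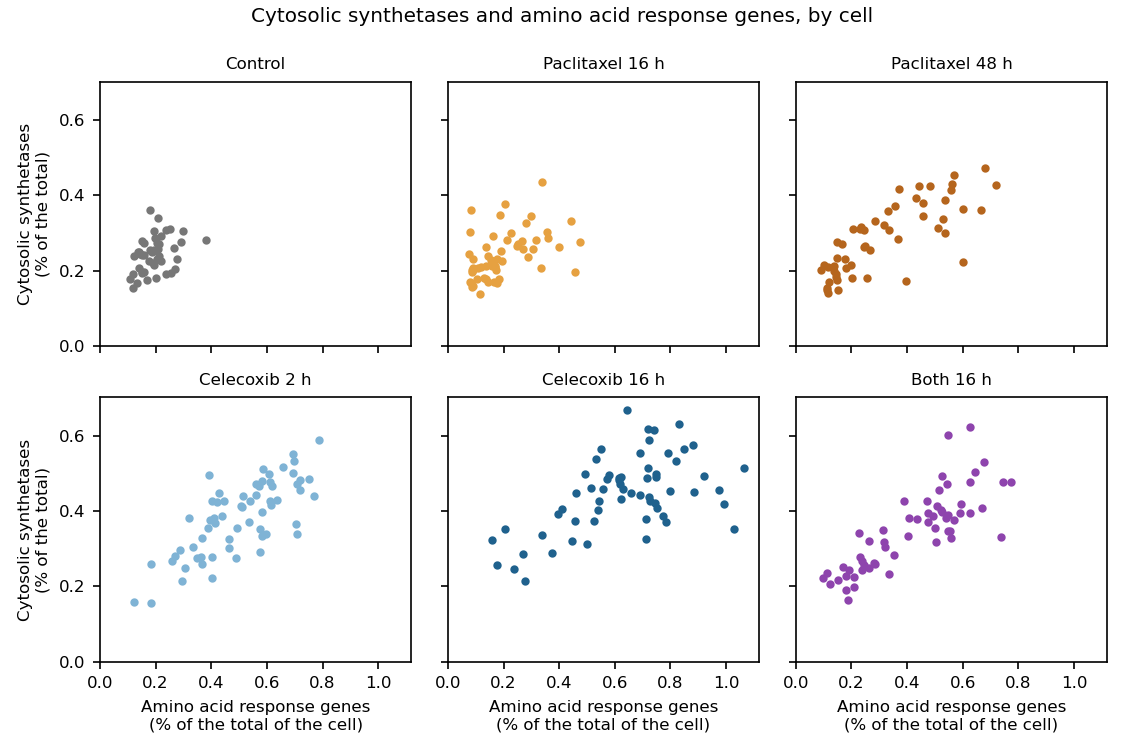
Share of each cell's total held by the 20 cytosolic synthetase genes (y axis, percent) against the share held by the 32 amino acid response genes (x axis, percent), with 1 point per cell and 1 panel per condition. Ctrl cells form a compact group, those of Pac48h, Cele2h and PacCele16h spread along a rising band, and those of Cele16h lie furthest up.

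Initiation factors and ribosomal proteins, the other main parts of the translation machinery, were counted in the same way. By relative difference in Cele2h, 3 of 51 initiation factors, 3 of 82 cytosolic ribosomal proteins and 0 of 77 mitochondrial ribosomal proteins were above the limit, and 14, 1 and 22 were below it, against 3.31% of all genes above and 8.12% below. In Cele16h 6, 0 and 2 were above and 9, 9 and 7 below, against 7.37% and 7.95% of all genes. Their median relative differences in Cele16h were -0.24, -0.27 and -0.10, against 0.61 for the cytosolic synthetases. In PacCele16h they were -0.12, -0.06 and -0.32, against 0.48.

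Several calls lay close to the 1.5-fold limit. By relative difference, WARS was the gene just inside it in Cele16h (0.64) and LARS just outside (0.58). The corresponding genes were CARS (0.62) and NARS2 (0.57) in PacCele16h, NARS (0.77) and RARS (-0.58) in Cele2h, FARSB (-0.62) and EPRS (0.57) in Pac16h, and HARS2 (0.61) and SARS2 (-0.57) in Pac48h. Besides MARS, HARS and HARS2, exons are shared with a neighbour on the other strand by YARS (396 bases with S100PBP), HARS (1090 with WDR55), KARS (176 with TERF2IP), AARS (43 with DDX19B) and CARS2 (334 with ING1), and by EARS2 with UBFD1 (11 bases), so reads there could belong to either gene. EARS2 also shares 203 exon bases with GGA2 on its own strand, with the same limit.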

How the data were processed

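Single-cell RNA-seq of 338 A2780 cells in 6 conditions was analysed, out of 372 in the labels. The authors trimmed adapters (Trim Galore) and ran RSEM 1.3.0 with the aligner Bowtie2 against hg38 transcripts of GENCODE version 28 and the 3 spike-in RNAs. They divided TPM by the highest spike-in, dropped cells with poorly detected housekeeping genes, and required detection in more than 30% of the cells of a condition. Per the labels and the study's methods, the deposited table is in log2 units, with E = log2(N/10 + 1). It holds 1 further row with the cell states of the authors, which was not used. Read counts were not used here, so no count model or doublet caller was run.

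N was recovered from E. The level of a gene was its mean E-value over the cells, and a gene past the detection limit (9655 genes) was called when its difference exceeded log2 of 1.5. For relative differences N of each cell was scaled to the median total of all cells. With 1 sample per condition no test was run. Shares of cells detected carry 95% Clopper-Pearson intervals. All comparisons except that of PacCele16h with Pac16h share the Ctrl cells. Counts, sums and medians cover all 36 members, and 1 member is not reported here by itself. Members and lists were chosen with earlier results of these data known. Levels in all conditions are given for the 3 highest members of each class in Ctrl, the 2 highest and 2 lowest differences per treatment on each scale, and every member past the limit by relative difference. From each other list up to 4 genes with the largest differences are named, plus ATF4, DDIT3, ASNS and the scaffold genes. The steps were tested on simulated data. Alternatives were the same total, linear means, both together, a pseudocount of 1 normalized TPM instead of 10, other detection limits (none or 50%), each index block of 96 alone, no wells noted as other than 1 cell, no GARS and KARS, and pairs by amino acid. The comparison with Pac16h, the share without SARS, shares per block, comparisons within a shared block and the same total with linear means were added after seeing the data. Gene coordinates are from GENCODE version 44 on hg38. The software was scipy 1.17.1, numpy 2.4.6, pandas 2.3.3 and matplotlib 3.10.9 under Python 3.11.15.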

Additional observations from a re-analysis of the deposited data

Results flagged for a closer look

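On the deposited scale 17 of the 36 synthetase genes, 10 cytosolic and 7 mitochondrial, lay below their base when celecoxib was added without paclitaxel (Cele16h against Ctrl) and above it when celecoxib was added with paclitaxel (PacCele16h against Pac16h), each by over 1.5-fold. Each condition is 1 sample, and the difference between these effects was not tested. The effect with paclitaxel minus the effect without it, in mean E-value, was for the cytosolic genes DARS 2.16, FARSA 3.26, FARSB 2.89, GARS 2.65, HARS 2.29, KARS 3.25, LARS 2.40, QARS 3.38, RARS 3.54 and TARS 2.65. Among the mitochondrial genes it was CARS2 2.29, IARS2 2.13, RARS2 2.86, SARS2 2.26, TARS2 1.83 and YARS2 2.11. RARS, for example, differed by -1.94 without and by 1.60 with paclitaxel. The same opposite directions were seen for 37.6% of all genes. At the same total per cell they were seen for none of the 36 genes and for 0.570% of all genes.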

How the results depend on the processing

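Of 334 values of 53 results recomputed under alternatives, 270 stayed within 1.5 times for a count or 1 SD over cells for other values. Of the rest 61 moved further and 3 were counted as reversed. Further values changed sign without being counted as reversed. The cytosolic median in Pac48h went from -0.41 as deposited to 0.097 at the same total and 0.29 with linear means added. The gap between the cytosolic and mitochondrial medians in Pac16h went from -0.46 to 0.052 with linear means and 0.078 with both changes. The gap in Cele16h, given below, also changed sign. The cause was not tested beyond what each alternative itself changes. The median difference of the cytosolic genes in Cele16h was -0.67 as deposited, 0.61 at the same total and 0.76 at the same total with linear means, and that of the mitochondrial genes was -0.62, -0.068 and 0.26. With the same total, the cytosolic genes past the limit above and below Ctrl were 0 and 4 in Pac16h, 2 and 1 in Pac48h, 11 and 2 in Cele2h, 10 and 4 in Cele16h, and 7 and 2 in PacCele16h. The mitochondrial genes were 0 and 2, 1 and 0, 0 and 0, 0 and 1, and 1 and 2 in the same order. Of all genes 1.40% and 10.0%, 3.28% and 5.78%, 3.31% and 8.12%, 7.37% and 7.95%, and 5.96% and 5.80% were above and below. The gap between the cytosolic and mitochondrial medians in Cele16h moved from -0.043 to 0.67, and to 0.53 with linear means alone and 0.50 with both changes.

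With the same total and linear means, chosen after seeing the data, the cytosolic counts above and below were 2 and 2, 3 and 1, 11 and 2, 13 and 1, and 11 and 1, and the mitochondrial counts were 2 and 4, 3 and 3, 3 and 3, 4 and 0, and 3 and 2. All genes gave 1639 and 1561, 2266 and 811, 2137 and 1008, 3405 and 787, and 2484 and 1017 of 9653 or 9654 genes. The cytosolic median in Pac16h was then -0.077. Linear means alone put 11 mitochondrial genes below Ctrl in Pac48h, 11 in Cele2h and 14 in Cele16h, 1 above in Pac48h, 1 above in Cele2h and 12 above in PacCele16h. Of all genes 44.0%, 39.1% and 76.0% were then below, and 7.34%, 7.33% and 72.2% above. They also put 1 cytosolic gene above Ctrl in Pac48h, and the mitochondrial median in Cele16h was -1.23.

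A pseudocount of 1 put 11 mitochondrial genes below Ctrl in Pac48h, 11 in Cele2h, 14 in Cele16h and 2 in PacCele16h, and 1 above in Pac48h, against 43.9%, 44.5%, 62.7% and 8.98% of all genes below and 4.79% above. Its cytosolic counts were 1 above in Pac48h, 3 above in Cele16h (against 2.38% of all genes) and 1 below in PacCele16h, and the mitochondrial median in Cele16h was -1.10. That median was -1.03 with a 50% detection limit. Index block 4 alone gave 1 cytosolic gene above Ctrl in Pac48h. For PacCele16h, block 1 alone gave 1 mitochondrial gene and block 3 alone 2 cytosolic genes below. Within block 4 no mitochondrial gene was above Ctrl in Pac48h at the same total (0, against 1 over all cells). Of all genes 4.81% were above there. Block 2 alone gave 10 cytosolic genes below Ctrl in Pac48h instead of 7 and a gap between the medians of -0.12 instead of 0.02. Shares of all genes are not given for a block alone, so the counts by block alone cannot be set against them. Leaving out GARS and KARS gave 13 instead of 15 cytosolic genes below in Pac16h, against 37.3% of all genes. Leaving out SARS took the cytosolic share in Cele16h from 1.86 to 1.61 times that of Ctrl. All values with block 2 alone, without GARS and KARS, and without SARS were within the stated limits. Values with no filter, with wells noted as 1 cell and by amino acid pairs also stayed within them, although the gap by pairs was -0.02 in Pac48h and 0.01 in Cele16h, opposite in sign to the gap between the medians. No paired analysis was possible because each condition is 1 sample and the results come from no test.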
